A study of Arabidopsis thaliana with 6 samples.

Results

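The class III peroxidases are the secreted heme peroxidases of plants, and 60 Arabidopsis genes of this family were followed here. Members were taken by their gene ID from the 33323 IDs listed in each library, by a rule on family membership that uses no measured value, although the family was taken up with earlier results of these data known. A mean of 1 RPKM (reads per kilobase of gene, corrected for depth) in either genotype was reached by 48 of the 60 genes. The notes of the RefSeq annotation of TAIR10.1 give the plant peroxidase domain for all 60, and that annotation supplied the symbols and positions used below. PRX71, PRX25 and PRX72, and PRX2 in a plot, are synonyms from the RefSeq gene table, and other genes with no symbol there are called by their AGI code.

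The libraries were made from poly(A) RNA of intact seedlings, hid1 (hidden treasure 1) mutants and the wild type (WT), with 3 libraries of each genotype that the submitters describe as biological replicates. Seedlings of both genotypes were 5 days old and grown in cR, taken here to mean continuous red light, as background knowledge on HID1 has it. The HID1 locus makes a noncoding RNA known to favour photomorphogenesis, the development of a seedling in light, when the light is red. The sources used here do not name the hid1 allele, and the level of HID1 itself was not analysed here.

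Class III peroxidases are exported to the cell wall, where they use hydrogen peroxide to oxidise phenolic compounds. This joins lignin monomers into lignin, crosslinks wall proteins such as extensins, and stiffens the wall. They can also produce reactive oxygen species, which can loosen the wall in growing cells and serve in defence against microbes. Many members are known to be expressed in roots and root hairs.

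Depth was estimated by taking the most frequent low value of RPKM multiplied by exon length as a single read. It came to about 17.6 to 23.2 M reads in the hid1 libraries and about 19.7 to 26.0 M reads in the WT libraries. At the median member length, 1 RPKM then stood for about 24.1 to 35.7 reads, so members under 1 RPKM rest on few reads. Over all genes, 2569 of 18871 tested changed at an adjusted p of 0.05 or lower in limma, 1775 of them higher and 794 lower in hid1. This split moved to 1305 higher and 1343 lower after quantile normalization and to 1346 higher and 1235 lower after median-ratio scaling. The first principal component of all tested genes held 58% of the variance. Libraries were made from whole seedlings, so more cells of a type and more RNA per cell cannot be told apart in any value below.

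Summed over its 60 genes, the family stood higher in hid1 than in WT, and PRXR1 held less of it. The summed level was 2513, 2762 and 2766 RPKM in hid1 replicates 1, 2 and 3, against 2359, 1747 and 1961 RPKM in WT replicates 1, 2 and 3. The genotypes did not overlap, although WT replicate 1 stood close to the lowest hid1 library. The sum averaged 2680 ± 145 RPKM in hid1 and 2022 ± 311 RPKM in WT (SD, n = 3 each), and the family made up 0.342% ± 0.0216 of all RPKM in hid1 and 0.251% ± 0.0385 in WT. PRXR1 (AT4G21960), a peroxidase annotated in nearly all plant structures, held 23.2% ± 4.53 of the family's RPKM in hid1 and 48.7% ± 4.54 in WT. PRX71 (AT5G64120), annotated to defence against fungi and the respiratory burst, held 21.8% ± 7.08 in hid1 and 3.99% ± 0.386 in WT. Without PRXR1 the sum of the remaining members was 2059 ± 191 RPKM in hid1 and 1045 ± 246 RPKM in WT. These sums and shares are descriptions, and 3 libraries against 3 cannot give an exact permutation p below 0.1.

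**Figure D1:**
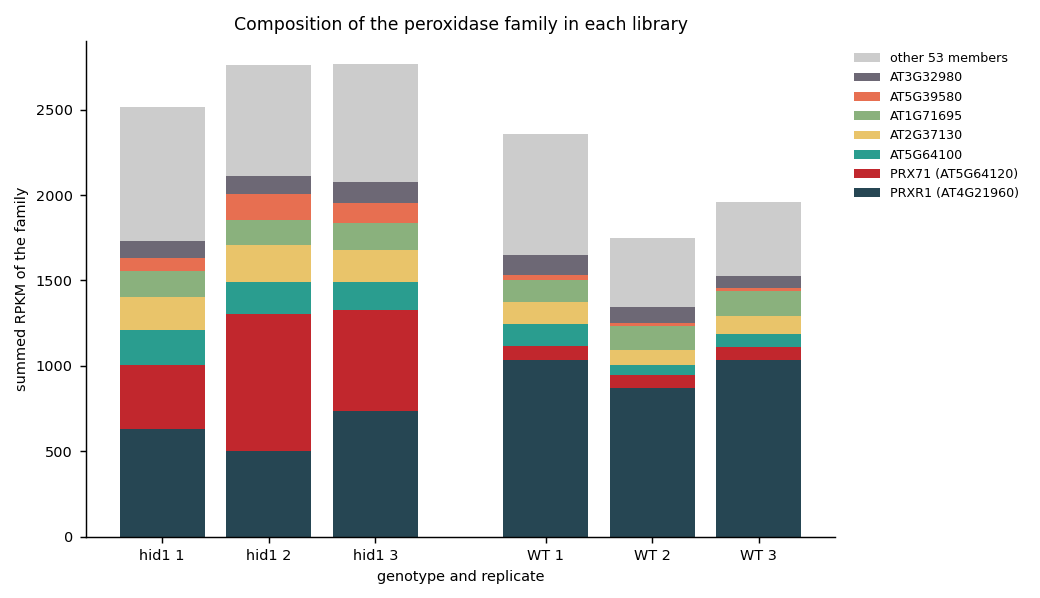
Summed RPKM of the 60 peroxidase genes in each library (bars, y axis from 0), stacked by the 7 genes that average 100 RPKM or more in either genotype and by the sum of the other 53. PRXR1 is the largest block in each WT library, and PRX71 reaches 378 to 805 RPKM in the hid1 libraries, against 75.8 to 84.4 RPKM in the WT libraries.

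Of the 48 members tested, 16 changed between hid1 and WT (33.3%), against 13.6% of all genes tested. Higher in hid1 were 10 members (all genes, 9.41%) and lower were 6 members (all genes, 4.21%). On the log2(RPKM + 1) scale, 9 of the 48 rose by over 2-fold (18.8%, against 2.51% of all genes tested) and 2 of the 48 fell by over 2-fold (4.17%, against 0.901%). The genotypes did not overlap in 20 of the 48 members, against 34.6% of all genes, with 12 members higher (all genes, 23.1%) and 8 lower (all genes, 11.4%). The median log2 fold change, hid1 over WT, was 0.35 over the tested members and 0.07 over all tested genes, and 36 of the 48 members had a positive value.

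The split between directions depended on the scaling. After quantile normalization and also after median-ratio scaling it was 8 higher and 8 lower (all genes, 6.92% higher and 7.12% lower after the first, and 7.13% and 6.54% after the second). AT1G30870 and AT3G01190 lost their calls, while PRXCA (AT3G49110) and AT2G38390 became lower. The counts also depended on single libraries. Without WT replicate 1, 24 members were higher and 7 lower, of 47 tested (all genes, 12.1% higher and 5.15% lower). Leaving out hid1 replicate 1 gave 7 higher and 3 lower (all genes, 6.81% and 2.52%), and leaving out hid1 replicate 2 gave 9 higher and 1 lower (all genes, 5.93% and 2.09%). Leaving out hid1 replicate 3 gave 6 higher and 5 lower (all genes, 5.4% and 3.14%). Leaving out WT replicate 2 gave 6 higher and 5 lower (all genes, 5.45% and 2.12%), and leaving out WT replicate 3 gave 6 higher and 4 lower (all genes, 5.7% and 2.55%). AT5G39580, AT4G36430 and AT2G37130 kept their calls under all 14 alternatives. PRX71, AT4G37520, AT5G64100 and AT5G64110 kept theirs under the 13 that fit single copies, the last alternative being the sum of tandem copies. None of the 16 called members changed direction in a fit of the single gene, but 7 of them lie in tandem clusters and enter that last fit only within a sum.

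**Figure D2:**
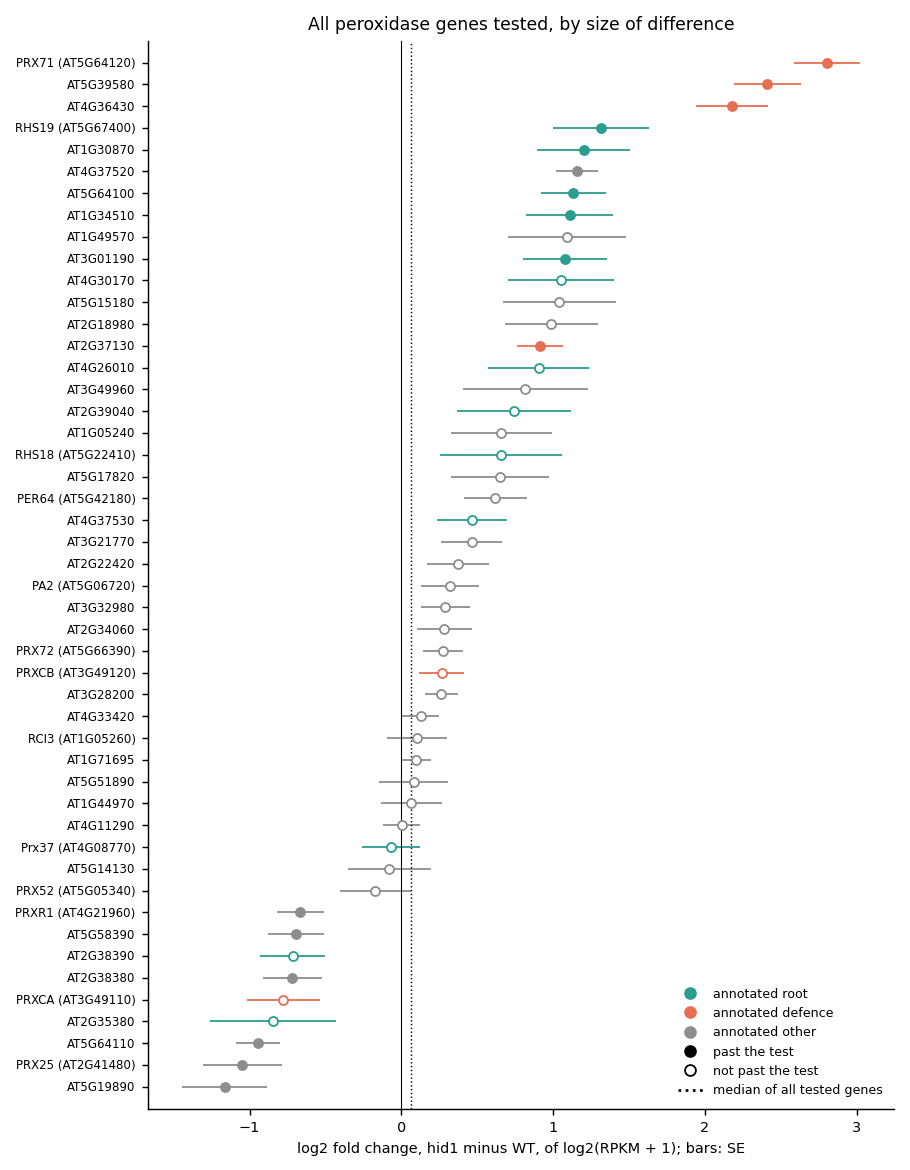
Log2 fold change, hid1 minus WT, of log2(RPKM + 1) for the 48 tested peroxidase genes in order of size, with bars for the SE of the fit (n = 3 each), filled points for genes past the test, and colours for the annotation group. The dotted line is the median of all tested genes at 0.07, and the 3 largest increases, 2.18 to 2.81, carry a defence annotation.

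The reference notes place 8 members in defence or in the response to other organisms. Of these, 6 were tested, and 4 of the 6 rose in hid1 (all genes, 9.41%) while none fell in limma (unadjusted p under 0.05: 4 higher, 1 lower). The 4 that rose hold the 3 largest increases of the whole family. Here and below, the share of all genes at the unadjusted threshold is not given, so such counts have no baseline. The mean log2(RPKM + 1) of the 6 genes was 5.35, 5.93 and 5.87 in hid1 replicates 1, 2 and 3, and 4.50, 4.30 and 4.45 in WT replicates 1, 2 and 3.

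PRX71 had 378, 805 and 590 RPKM in the hid1 libraries, against 84.4, 75.8 and 79.6 RPKM in the WT libraries. Each hid1 library stood far above each WT library, and the spread among hid1 libraries was wider than that among WT libraries. The log2 fold change was 2.81 ± 0.22 (SE; limma adjusted p = 4.68e-05), which makes it the smallest adjusted p in the family. AT5G39580, annotated to defence against fungi, had 79.0, 149 and 119 RPKM in hid1, against 26.4, 18.0 and 17.5 RPKM in WT. The groups were again fully apart, with a log2 fold change of 2.41 ± 0.22 (limma adjusted p = 0.000108). AT4G36430, annotated to the response to other organisms, had 10.7, 24.4 and 18.5 RPKM in hid1, against 3.07, 2.78 and 3.07 RPKM in WT. Its log2 fold change was 2.18 ± 0.24 (limma adjusted p = 0.000261). In all 3 genes hid1 replicate 1 was the lowest hid1 library and hid1 replicate 2 the highest.

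AT2G37130, the fourth of them and also annotated to defence against fungi, was already abundant in WT. It had 195, 216 and 185 RPKM in hid1, against 131, 83.8 and 105 RPKM in WT. The groups did not overlap, and the log2 fold change was 0.91 ± 0.15 (limma adjusted p = 0.00334). The other two tested members of this group are PRXCA and PRXCB, neighbouring copies known for making hydrogen peroxide in defence, and neither passed the test. PRXCA had 2.33, 2.58 and 4.41 RPKM in hid1 against 4.24, 5.66 and 8.29 RPKM in WT, while PRXCB had 18.8, 20.3 and 28.0 RPKM in hid1 against 19.2, 18.2 and 17.1 RPKM in WT. Both pairs of ranges overlapped (limma adjusted p = 0.0555 for PRXCA and 0.262 for PRXCB).

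**Figure D3:**
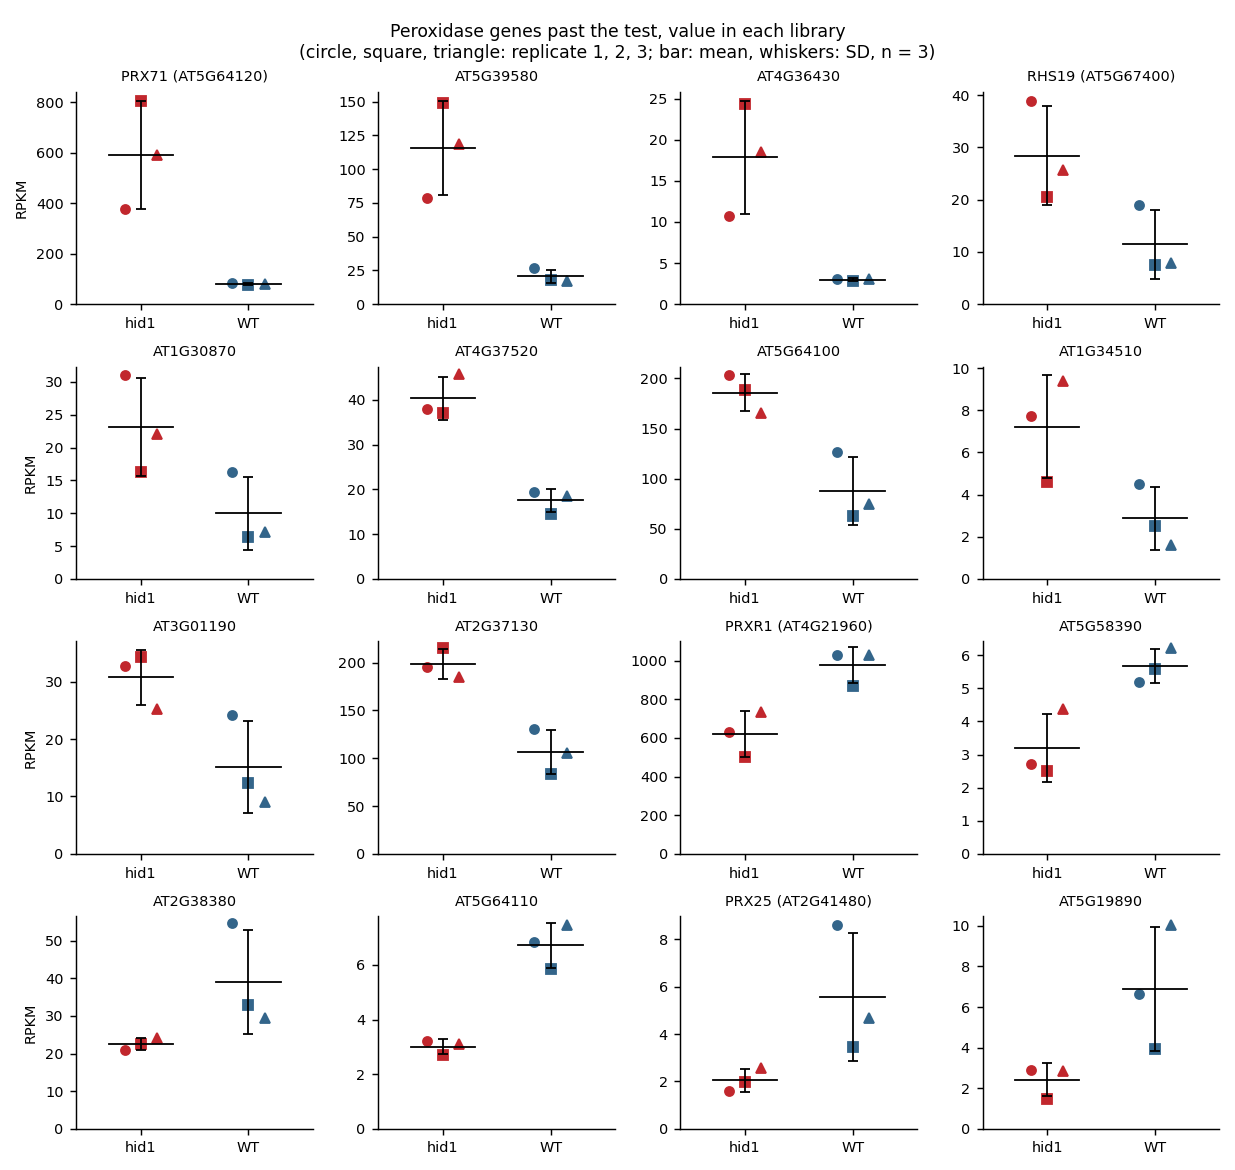
RPKM of the 16 peroxidase genes past the test in each library, with hid1 left of WT in each panel, marks for replicates 1, 2 and 3, a bar for the mean and whiskers for the SD (n = 3); each y axis starts at 0. PRX71, AT5G39580 and AT4G36430 are fully separated, whereas in RHS19, AT1G30870 and AT3G01190 WT replicate 1 lies near the lowest hid1 library.

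PRX71 and AT5G39580 are each other's closest relatives among the 60 members, although they lie far apart on chromosome 5. Their coding sequences matched at 78.1% of 957 aligned bases, and the longest identical stretch was 27 bases. The alike windows below are shown because these 2 genes gave the 2 largest increases. The 60 bases start at coding position 406 of AT5G39580 and at coding position 436 of PRX71, in TAIR10.1, with the 7 differing bases in capitals.
AT5G39580: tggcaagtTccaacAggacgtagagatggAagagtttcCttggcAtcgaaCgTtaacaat
PRX71: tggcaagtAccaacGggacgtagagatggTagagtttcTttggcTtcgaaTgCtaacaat

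The upstream regions of the 3 genes with the largest increases are shown next, with that of PRXR1, the most abundant member that fell. Each run is the 250 bases before the annotated gene start on the gene's own strand, from the RefSeq annotation of TAIR10.1. The regions are chr5:25661008-25661257 for PRX71, chr5:15849142-15849391 for AT5G39580, chr4:17206034-17206283 for AT4G36430 and chr4:11648645-11648894 for PRXR1, all on the minus strand. Capitals mark the W-box letters TTGACC or TTGACT and their reverse complements GGTCAA and AGTCAA, the core that WRKY transcription factors are known to bind.
PRX71: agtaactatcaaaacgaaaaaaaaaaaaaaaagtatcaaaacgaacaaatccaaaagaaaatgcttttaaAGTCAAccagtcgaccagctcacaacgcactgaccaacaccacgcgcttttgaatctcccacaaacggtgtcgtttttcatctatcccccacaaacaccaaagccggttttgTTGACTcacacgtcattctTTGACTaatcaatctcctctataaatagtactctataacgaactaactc
AT5G39580: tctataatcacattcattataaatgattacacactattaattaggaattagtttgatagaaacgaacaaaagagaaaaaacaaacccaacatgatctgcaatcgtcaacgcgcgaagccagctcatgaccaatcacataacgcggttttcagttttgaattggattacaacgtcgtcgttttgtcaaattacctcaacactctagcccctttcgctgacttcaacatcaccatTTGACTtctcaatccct
AT4G36430: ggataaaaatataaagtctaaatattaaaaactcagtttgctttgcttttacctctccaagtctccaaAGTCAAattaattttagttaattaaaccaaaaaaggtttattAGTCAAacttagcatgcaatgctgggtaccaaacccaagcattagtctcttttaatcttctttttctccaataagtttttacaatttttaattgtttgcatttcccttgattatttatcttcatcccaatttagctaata
PRXR1: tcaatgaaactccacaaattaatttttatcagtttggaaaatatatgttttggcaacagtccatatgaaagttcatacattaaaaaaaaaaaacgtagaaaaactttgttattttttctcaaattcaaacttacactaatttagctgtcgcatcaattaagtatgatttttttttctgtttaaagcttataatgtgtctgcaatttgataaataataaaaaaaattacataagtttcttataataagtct

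The PRX71 run holds the W-box letters at 3 places, starting 180, 68 and 49 bases before the gene start. AT4G36430 holds them 182 and 140 bases before its start, AT5G39580 holds them 17 bases before its start, and the PRXR1 run holds none. Windows from 250 bases before to 50 bases after the start were searched for all genes. W-box letters were present in 6 of the 10 members that rose (60%), in 0 of the 6 that fell, in 23 of all 60 members (38.3%) and in 32.4% of 26711 protein-coding genes. The other genes with W-box letters among those that rose were RHS19, AT1G30870 and AT3G01190. The only match in AT1G30870 starts at the window's edge, 250 bases before the gene start. In AT3G01190 the only match lies after the gene start, at an offset of 4 bases. The G-box CACGTG, known as a site of light-signalling factors such as PIFs and HY5, was present in 0 of the 60 members and in 7.79% of all genes. The related letters CACATG or CATGTG were present in 6 of 60 members (10%), among them AT2G37130 of the members that rose, and in 13.0% of all genes. None of these motifs overlaps another in its letters on the same bases, and a match describes letters only.

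The reference notes list expression in the root or root hair for 16 members, with no leaf, stem, shoot, flower or fruit beside it. Of these root-annotated members, 6 also list the hypocotyl, the seedling stem, 5 of which were tested, and RHS18 lists the synergid, a cell of the embryo sac. Of the 16, 13 were tested, and 5 rose in hid1 (all genes, 9.41%) while none fell in limma (unadjusted p under 0.05: 7 higher, 1 lower). Their median log2 fold change was 0.90, and 10 of the 13 had a positive value. AT5G64100, the most abundant of them, had 203, 188 and 166 RPKM in hid1, against 126, 62.5 and 74.6 RPKM in WT. The groups did not overlap, and WT replicate 1 was the highest WT library (log2 fold change 1.13 ± 0.21, limma adjusted p = 0.0067).

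RHS19 (AT5G67400), named root hair specific 19, had 39.0, 20.6 and 25.7 RPKM in hid1, against 19.0, 7.46 and 7.85 RPKM in WT. The lowest hid1 library stood just above WT replicate 1 (log2 fold change 1.31 ± 0.31, limma adjusted p = 0.0203). AT1G30870 had 31.0, 16.3 and 22.1 RPKM in hid1, against 16.3, 6.39 and 7.22 RPKM in WT, so that hid1 replicate 2 and WT replicate 1 were level. AT3G01190 had 32.8, 34.3 and 25.3 RPKM in hid1, against 24.3, 12.3 and 8.97 RPKM in WT, and AT1G34510 had 7.71, 4.58 and 9.38 RPKM in hid1, against 4.51, 2.50 and 1.61 RPKM in WT. In both genes WT replicate 1 came close to the lowest hid1 library. Limma's adjusted p was 0.0267 for AT1G30870, 0.0282 for AT3G01190 and 0.0279 for AT1G34510. These 3 calls and that of RHS19 were each lost when hid1 replicate 1, hid1 replicate 3, WT replicate 2 or WT replicate 3 was left out, and that of AT3G01190 also without hid1 replicate 2; the highest adjusted p over all alternatives was 0.122, for AT1G34510.

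WT replicate 1 was also the highest WT library in the 8 root-annotated members that did not pass the test, except Prx37 (AT4G08770). AT4G30170 had 54.2, 52.0 and 42.3 RPKM in hid1, against 49.4, 14.5 and 17.3 RPKM in WT. AT4G26010 had 33.5, 19.9 and 24.2 RPKM in hid1, against 25.7, 8.42 and 10.05 RPKM in WT. In both genes WT replicate 1 fell inside the hid1 range and WT replicates 2 and 3 lay below it (limma adjusted p = 0.0717 and 0.0989). RHS18 (AT5G22410), named root hair specific 18, had 8.71, 2.94 and 7.13 RPKM in hid1, against 7.19, 1.91 and 2.34 RPKM in WT. AT2G35380 went the other way through a single library, with 0.36, 0.16 and 0.55 RPKM in hid1 against 4.59, 0.56 and 0.63 RPKM in WT.

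WT replicate 1 was the highest WT library in 12 of the 13 root-annotated members, and in 36 of all 48 tested members. The latter include 4 of the 6 defence-annotated members and 20 of the 29 remaining members. The mean log2(RPKM + 1) of the root-annotated members was 3.85, 3.47 and 3.70 in hid1 replicates 1, 2 and 3. It was 3.80, 2.64 and 2.73 in WT replicates 1, 2 and 3. The sum of the markers of the root and root hair was also highest in replicate 1 among the WT libraries, although SCR and PLT2 singly were not. The 13 marker genes summed to 247, 166 and 181 RPKM in hid1, against 208, 107 and 115 RPKM in WT. None of them was at 0 in any library. Without IRT1, the other 12 summed to 242, 160 and 173 RPKM in hid1, against 157, 78.0 and 86.1 RPKM in WT. WT replicate 1 then lay just below the lowest hid1 library. Of the 10 markers tested, 4 rose in hid1 (EXPA7, PRP3, RSL4 and SCR) and 1 fell, IRT1, the iron transporter of the root epidermis (all genes, 9.41% higher and 4.21% lower). The 5 changed markers became 8 without WT replicate 1 (all genes, 17.3%) and 1 without hid1 replicate 1 (all genes, 9.33%). They became 3 without hid1 replicate 2 (all genes, 8.02%) or after either rescaling (all genes, 14% and 13.7%). Without hid1 replicate 3, WT replicate 2 or WT replicate 3 they became 2 (all genes, 7.58% to 8.54%). SCR lost its call when any 1 of the 6 libraries was left out. IRT1 had 4.71, 6.46 and 7.60 RPKM in hid1, against 50.4, 29.3 and 28.9 RPKM in WT (limma adjusted p = 0.000127). Of the 8 green shoot markers, 2 fell in hid1, CAB3 and PSAD1 (all genes, 4.21%), and none rose in limma (unadjusted p under 0.05: 2 lower, 0 higher). After median-ratio scaling, and without any single library other than hid1 replicate 1, 0 of the 8 were called. The 8 summed to 63003 to 83871 RPKM in hid1 and 79466 to 83234 RPKM in WT. None of 5 seed maturation markers changed in limma (unadjusted p under 0.05: 1 higher, 0 lower), but 1 did without WT replicate 1 (all genes, 17.3%). The part of root content, and of WT replicate 1, in the peroxidase values was not tested. Without WT replicate 1, 10 of 12 root-annotated members tested were higher in hid1 (all genes, 12.1%). Leaving out hid1 replicate 2 instead gave 4 of 13 (all genes, 5.93%). Leaving out any of the other libraries gave only 1 of 13 (all genes, 5.4% to 6.81%).

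**Figure D4:**
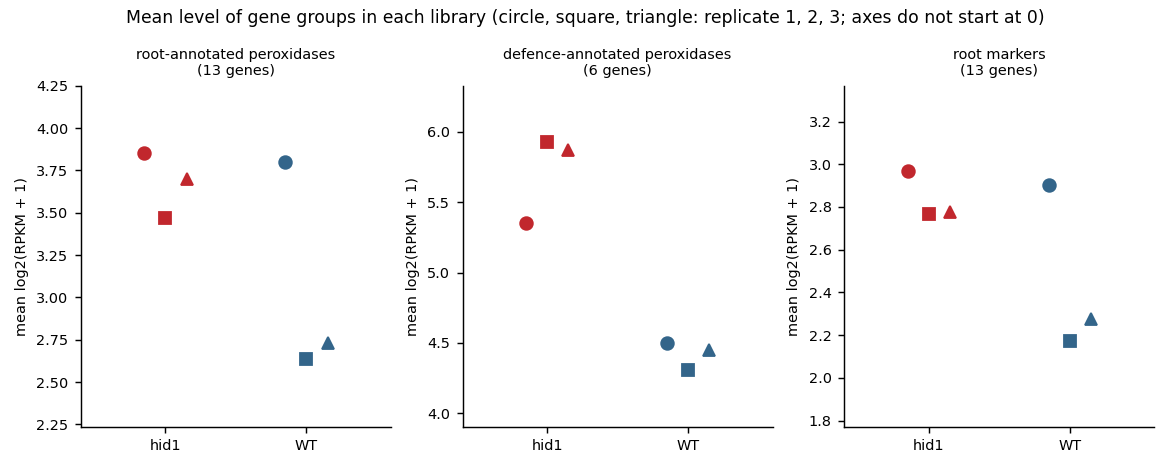
Mean log2(RPKM + 1) of 13 root-annotated peroxidase genes, 6 defence-annotated peroxidase genes and 13 root markers in each library, hid1 left of WT, with marks for replicates 1, 2 and 3; the y axes do not start at 0. WT replicate 1 lies at 3.80 among the hid1 libraries for the root-annotated genes, but at 4.50 with the other WT libraries for the defence-annotated genes. The root markers include IRT1, without which (not drawn) WT replicate 1 is at 2.67, below the hid1 libraries at 2.75 to 3.01.

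The remaining 36 members have notes that list aerial organs, many structures or no place. Of these, 29 were tested, 1 rose (all genes, 9.41%) and 6 fell in hid1 (all genes, 4.21%). AT4G37520 rose: it had 38.0, 37.1 and 45.9 RPKM in hid1, against 19.5, 14.6 and 18.6 RPKM in WT. The genotypes were well apart (log2 fold change 1.16 ± 0.14, limma adjusted p = 0.000479).

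PRXR1 was the most abundant peroxidase in both genotypes and fell in hid1. It had 629, 500 and 735 RPKM in hid1, against 1031, 869 and 1032 RPKM in WT. All hid1 libraries lay below all WT libraries (log2 fold change -0.67 ± 0.15, limma adjusted p = 0.0174). Without hid1 replicate 2 or WT replicate 3 the call was lost, and the highest adjusted p over the alternatives was 0.0670. PRXR1 and AT2G37130, which rose, were each other's closest relatives by coding sequence among the 60 members, at 63.4% of 965 aligned bases.

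The other members that fell were at low or moderate levels. AT5G64110, annotated to the shoot and leaf, had 3.20, 2.71 and 3.12 RPKM in hid1, against 6.85, 5.85 and 7.47 RPKM in WT. Libraries of each genotype were close together and the genotypes far apart (log2 fold change -0.94 ± 0.14, limma adjusted p = 0.00198). AT5G19890 had 2.90, 1.47 and 2.86 RPKM in hid1, against 6.66, 3.95 and 10.04 RPKM in WT (log2 fold change -1.16 ± 0.28, limma adjusted p = 0.0207). PRX25 (AT2G41480) had 1.58, 1.98 and 2.57 RPKM in hid1, against 8.62, 3.45 and 4.66 RPKM in WT (log2 fold change -1.05 ± 0.26, limma adjusted p = 0.0235). In both genes the WT libraries varied more than the hid1 libraries.

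AT5G58390 had 2.70, 2.49 and 4.37 RPKM in hid1, against 5.19, 5.58 and 6.21 RPKM in WT (log2 fold change -0.69 ± 0.18, limma adjusted p = 0.0299). AT2G38380, annotated to the responses to zinc and salt, had 20.8, 22.6 and 24.1 RPKM in hid1, against 54.8, 32.9 and 29.4 RPKM in WT (log2 fold change -0.72 ± 0.20, limma adjusted p = 0.0359). Neither gene overlapped between the genotypes. The calls of PRX25 and AT2G38380 were lost when any hid1 library was left out, with adjusted p up to 0.0911 and 0.110 over the alternatives. That of AT5G19890 was lost without hid1 replicate 2, hid1 replicate 3 or WT replicate 3 (up to 0.0891), and that of AT5G58390 without hid1 replicate 1, hid1 replicate 2, WT replicate 2 or WT replicate 3 (up to 0.103).

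Tandem copies were grouped where members lie within 10 kb of each other, which gave 11 clusters with 24 members, and 5 clusters held a copy that changed. Near-identical copies can share reads, and the sources used here do not say how the authors counted such reads. Pairs within a cluster matched at 58.8 to 100% of aligned coding bases (15 pairs, median 73.6%), and all other pairs at 54.3 to 84.4% (1755 pairs, median 59.8%). With the copies of each cluster summed, weighted by exon length, 42 units were tested, of which 9 were higher (all genes, 9.4%) and 5 lower (all genes, 4.2%).

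Copies of the cluster at chr5:25650567-25661007 moved in opposite directions. AT5G64100 and PRX71 at its 2 ends rose, and AT5G64110 between them fell. Its copies matched at 62.9 to 70.8% of aligned coding bases, with no identical stretch longer than 17 bases. Summed, the cluster had 572, 965 and 737 RPKM in hid1, against 217, 142 and 160 RPKM in WT (log2 fold change 2.11 ± 0.20, limma adjusted p = 0.00013). The windows below show how far its outer copies differ: 60 bases from coding position 202 of AT5G64100 and from coding position 196 of PRX71, with the 11 differing bases in capitals.
AT5G64100: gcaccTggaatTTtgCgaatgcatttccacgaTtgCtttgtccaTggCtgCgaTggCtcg
PRX71: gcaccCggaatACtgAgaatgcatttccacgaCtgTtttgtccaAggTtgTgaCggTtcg

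Closer copies were found in the pairs AT4G37520 with AT4G37530 (92.4% of 990 aligned coding bases) and AT2G38380 with AT2G38390 (90.6% of 1050). AT4G37530 had 8.77, 6.35 and 7.11 RPKM in hid1, against 7.75, 3.41 and 4.74 RPKM in WT, and did not pass the test (limma adjusted p = 0.199). Summed with AT4G37520 the pair rose (log2 fold change 1.04 ± 0.15, limma adjusted p = 0.00144). AT2G38390 had 1.51, 1.44 and 2.6 RPKM in hid1, against 4.74, 3.63 and 2.68 RPKM in WT, the same direction as AT2G38380 with an adjusted p of 0.0504 in limma. Summed, that pair fell (log2 fold change -0.74 ± 0.20, limma adjusted p = 0.0317). In PRXCA and PRXCB, at 90.7% of 1062 bases, the copies differed in sign, and their sum had a log2 fold change of 0.04 ± 0.15 (limma adjusted p = 0.891).

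AT5G19890 and AT5G58390 each lie beside a copy that was nearly silent. AT5G19880 reached at most 0.20 RPKM and AT5G58400 at most 0.08 RPKM in any library. The sums with these neighbours fell as the single genes did (limma adjusted p = 0.019 and 0.0274).

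The cluster at chr1:1520278-1531484 holds the only pair of members with identical coding sequence. AT1G05240 and AT1G05250 matched at 978 of 978 coding bases, and AT1G05250 was listed at 0 in all 6 libraries. AT1G05240 had 54.4, 29.2 and 35.2 RPKM in hid1, against 44.9, 16.1 and 18.6 RPKM in WT, and did not pass the test (limma adjusted p = 0.213). Reads from the coding sequence of AT1G05240 and of AT1G05250 cannot be told apart. RCI3 (AT1G05260), the third copy, is known for its induction by cold, and had 47.1, 36.8 and 37.5 RPKM in hid1, against 53.8, 32.2 and 30.2 RPKM in WT. The first 60 coding bases of the identical pair are given to show what reads would have to separate, with no differing base and so no capitals.
AT1G05240: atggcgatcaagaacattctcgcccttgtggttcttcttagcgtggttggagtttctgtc
AT1G05250: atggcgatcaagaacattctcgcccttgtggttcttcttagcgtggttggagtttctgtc

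**Figure D5:**
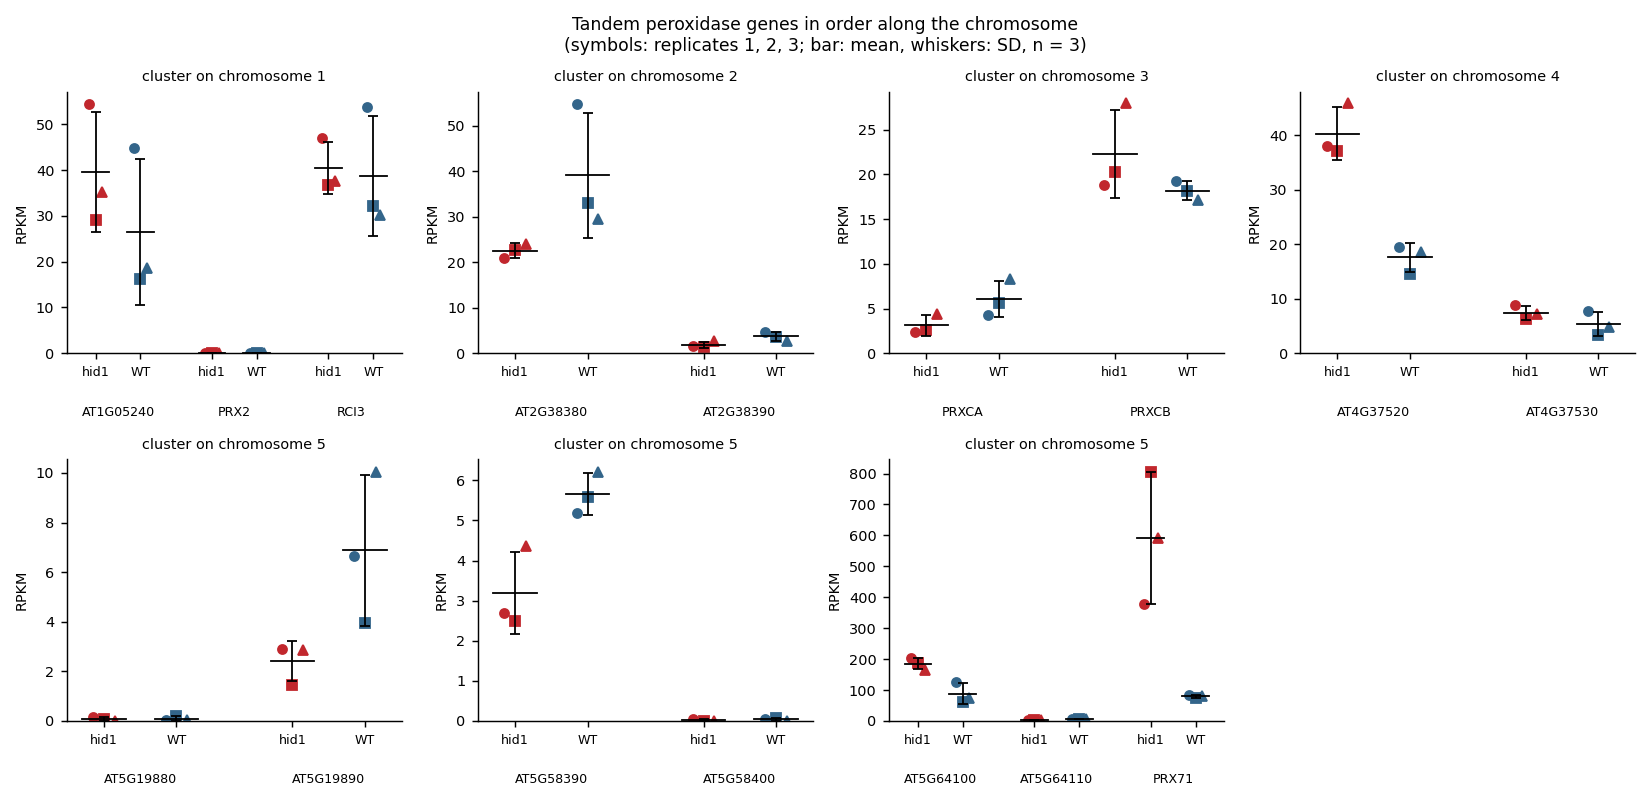
RPKM of the copies of the 7 tandem clusters that hold a gene named for its call or its level, in each library, in chromosomal order, with hid1 left of WT for each copy, marks for replicates 1, 2 and 3, a bar for the mean and whiskers for the SD (n = 3); each y axis starts at 0. AT5G64100 and PRX71 are higher in hid1 and AT5G64110, near the axis at this scale, is lower; PRX2 is AT1G05250, at 0 throughout, and in the pairs on chromosomes 3 and 4 a single copy, PRXCB or AT4G37520, holds most of the RPKM.

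The cluster of Prx37 and AT4G08780 and the cluster of PA2 (AT5G06720) and AT5G06730 had no copy that passed the test (limma adjusted p = 0.685 and 0.197 for the sums). The 2 clusters of AT1G14540 with AT1G14550 and of AT2G18140 with AT2G18150 stayed below 1 RPKM on average and were not tested.

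Other abundant members did not pass the test, which does not show that they were level. AT1G71695 had 148, 147 and 157 RPKM in hid1, against 133, 144 and 145 RPKM in WT, a log2 fold change of 0.10 ± 0.10 (limma adjusted p = 0.554). AT3G32980 had 101.8, 105.8 and 125.3 RPKM in hid1, against 115, 88.7 and 72.0 RPKM in WT (limma adjusted p = 0.259). The ranges of AT1G71695 were narrow and just apart, while those of AT3G32980 overlapped. AT3G28200 had 60.3, 64.4 and 53.9 RPKM in hid1, against 51.8, 49.0 and 47.3 RPKM in WT (limma adjusted p = 0.132), and PRX72 (AT5G66390), known for a role in lignification, had 32.5, 25.9 and 25.4 RPKM in hid1, against 24.8, 20.4 and 23.4 RPKM in WT (limma adjusted p = 0.19). In both genes all hid1 libraries were above all WT libraries, and the means, hid1 over WT, had ratios of 1.21 for AT3G28200 and 1.22 for PRX72.

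AT5G17820 had 71.5, 45.5 and 53.0 RPKM in hid1, against 66.3, 22.7 and 28.5 RPKM in WT, and AT2G18980 had 31.6, 24.9 and 23.7 RPKM in hid1, against 24.8, 9.05 and 9.30 RPKM in WT. WT replicate 1 again lay within the hid1 range in both. Both passed the test when WT replicate 1 was left out, with log2 fold changes of 1.099 for AT5G17820 and 1.44 for AT2G18980. AT3G21770 averaged 25.4 ± 5.35 RPKM in hid1 and 18.3 ± 4.91 RPKM in WT, and AT5G51890 averaged 27.4 ± 9.28 RPKM in hid1 and 25.0 ± 4.46 RPKM in WT (SD, n = 3 each). Neither passed the test in limma, with adjusted p of 0.151 for AT3G21770 and 0.844 for AT5G51890.

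The 16 further members tested averaged 0.357 to 17.01 RPKM in a genotype, with log2 fold changes of -0.85 to 1.09 and limma adjusted p of 0.0746 or more. A positive value was seen in 12 of them and a negative value in 4. Of all members just inside the threshold of 0.05, AT2G38380 had an adjusted p of 0.0359 and AT5G58390 of 0.0299 in limma. Just outside lay AT2G38390 at 0.0504, PRXCA at 0.0555 and AT2G18980 at 0.0558. On the filter itself, PRX52 (AT5G05340) lay just inside, at 0.957 ± 0.159 RPKM in hid1 and 1.27 ± 0.646 RPKM in WT, and AT2G18150 just outside, at 0.640 ± 0.226 RPKM in hid1 and 0.820 ± 0.139 RPKM in WT (SD, n = 3 each). The filter passed 2 members only through their WT mean, AT2G35380 and PRX52, and 0 only through their hid1 mean. The 12 members not tested include AT1G05250, and the other 11 had no library above 1.08 RPKM, the value of PER4 (AT1G14540) in hid1 replicate 2.

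Genes that supply or use the same chemistry were read from the same fit. NADPH oxidases make the superoxide from which wall hydrogen peroxide is formed. None of the 4 tested changed in limma (unadjusted p under 0.05: 1 higher, 0 lower), but 1 did without WT replicate 1 (all genes, 17.3%). RBOHD, the oxidase best known from defence, had 8.76, 8.36 and 13.0 RPKM in hid1, against 15.1, 11.5 and 12.2 RPKM in WT (limma adjusted p = 0.202). RBOHF had 3.39, 3.66 and 4.11 RPKM in hid1, against 3.66, 2.76 and 3.02 RPKM in WT (limma adjusted p = 0.438). Both sets of values overlapped.

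Of 7 genes of the Casparian strip, the lignin band of the root endodermis that class III peroxidases help to build, 2 rose (all genes, 9.41%) and none fell in limma (unadjusted p under 0.05: 6 higher, 0 lower). Without WT replicate 1, 6 of them changed (all genes, 17.3%). CASP5 had 14.8, 14.6 and 10.7 RPKM in hid1, against 3.70, 2.84 and 2.55 RPKM in WT (log2 fold change 1.83 ± 0.17, limma adjusted p = 0.000102). CASP4 had 10.4, 13.8 and 8.71 RPKM in hid1, against 5.33, 4.82 and 5.83 RPKM in WT (limma adjusted p = 0.00583). Both were fully separated. PER64 (AT5G42180), a member known to act at the Casparian strip, had 18.7, 18.5 and 13.9 RPKM in hid1, against 15.5, 8.34 and 9.24 RPKM in WT and did not pass the test (limma adjusted p = 0.0746). CASP1 averaged 49.5 ± 12.0 RPKM in hid1 and 32.8 ± 9.58 RPKM in WT and did not pass either (limma adjusted p = 0.0974).

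Of 21 genes for monolignol synthesis and laccases, which make and oxidise the substrates of lignin, 6 rose (all genes, 9.41%) and none fell in limma (unadjusted p under 0.05: 9 higher, 3 lower). Only 2 changed without WT replicate 2 (all genes, 7.58%) or WT replicate 3 (all genes, 8.26%). The count was 3 without hid1 replicate 2 (all genes, 8.02%) or hid1 replicate 3 (all genes, 8.54%). All 6 stayed under 2-fold. The smallest adjusted p belonged to CAD5, which had 36.0, 39.5 and 41.6 RPKM in hid1, against 27.2, 24.8 and 26.7 RPKM in WT (limma adjusted p = 0.00761). CCOAOMT1 had 228, 231 and 255 RPKM in hid1, against 164, 162 and 175 RPKM in WT (limma adjusted p = 0.00935). CSE and C4H also rose, with log2 fold changes of 0.50 and 0.52, and both calls were lost without WT replicate 2 or WT replicate 3, that of C4H also without hid1 replicate 2 or hid1 replicate 3.

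Of 10 extensins and related wall proteins, substrates of wall crosslinking, 3 rose (all genes, 9.41%) and none fell in limma (unadjusted p under 0.05: 9 higher, 0 lower). Without WT replicate 1, 10 changed (all genes, 17.3%). The count was 1 after quantile normalization (all genes, 14%) or median-ratio scaling (all genes, 13.7%). It was also 1 without hid1 replicate 1, hid1 replicate 3, WT replicate 2 or WT replicate 3 (all genes, 7.58% to 9.33%). EXT1 (AT1G76930, EXT4 in the name table) had 964, 1369 and 1087 RPKM in hid1, against 386, 223 and 225 RPKM in WT. It was the most abundant gene of this list and fully separated (log2 fold change 2.07 ± 0.21, limma adjusted p = 2e-04). EXT12 had 48.0, 19.5 and 38.0 RPKM in hid1, against 21.9, 9.85 and 10.4 RPKM in WT, and PRP3, a root hair wall protein, had 109, 41.9 and 74.3 RPKM in hid1, against 53.0, 18.1 and 19.2 RPKM in WT. In both, WT replicate 1 lay above hid1 replicate 2. Their adjusted p in limma was 0.0302 for EXT12 and 0.0462 for PRP3, and both calls were lost without hid1 replicate 1, hid1 replicate 3, WT replicate 2 or WT replicate 3 (up to 0.126 and 0.152 over the alternatives).

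Ascorbate peroxidases, catalases and superoxide dismutases handle hydrogen peroxide and superoxide inside the cell, and ascorbate peroxidases belong to another class of heme peroxidase. Of 12 tested, 2 rose and none fell in limma (unadjusted p under 0.05: 3 higher, 1 lower), which is 16.7% against 13.6% of all genes. The count was 4 after quantile normalization (all genes, 14%). It was 1 without hid1 replicate 2, hid1 replicate 3 or WT replicate 2 (all genes, 7.58% to 8.54%). CSD1, a superoxide dismutase, had 63.6, 81.6 and 67.4 RPKM in hid1, against 33.2, 34.2 and 33.4 RPKM in WT (log2 fold change 1.05 ± 0.12, limma adjusted p = 0.000327). The catalase gene CAT1 had 21.5, 22.0 and 25.5 RPKM in hid1, against 15.1, 14.2 and 17.7 RPKM in WT (limma adjusted p = 0.0202). Neither overlapped between the genotypes. The cytosolic ascorbate peroxidase APX1, at 680 ± 47.6 RPKM in hid1 and 660 ± 37.5 RPKM in WT, did not pass the test (limma adjusted p = 0.841).

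UPB1, a transcription factor known to repress peroxidase genes in the root, had 5.66, 3.78 and 4.36 RPKM in hid1, against 3.48, 1.11 and 1.03 RPKM in WT. The lowest hid1 library stood just above WT replicate 1 (log2 fold change 1.05 ± 0.28, limma adjusted p = 0.0332). The call was lost without each single library other than WT replicate 1, and the highest adjusted p over the alternatives was 0.113.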

How the data were processed

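Poly(A) RNA of 6 libraries, 3 of hid1 and 3 of WT, took its groups and replicate numbers from the sample titles. Per the submitters' processing notes the authors used TopHat2 2.0.9, Cuffdiff 2.0.0 and TAIR10. The authors deposited RPKM values per gene, per the file headers. The sources used here do not give the read counter, the RPKM denominator, the use of strand or the treatment of reads that match several copies, and RPKM of close copies depends on the last. Depth was estimated from RPKM times exon length, with 32835 of 33323 IDs matched to TAIR10.1 and 488 not. The same annotation gave positions, which were not compared with the authors' build.

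Values were tested as log2(RPKM + 1), so fold changes of low genes are understated, with the lmFit function of limma 3.58.1 and an eBayes step that allows a mean-variance trend, under R 4.3.3. The model held genotype alone. The fit took genes that averaged 1 RPKM or more in hid1 or in WT, and Benjamini-Hochberg adjustment ran over all 18871 genes. The threshold for a call was an adjusted p of 0.05 at most. Named members were all that passed, all that averaged at least 20 RPKM in either genotype, and their tandem copies. Each related list contributed its most significant members, 4 at most, or, with no call in the list, its 2 most abundant; PER64, CASP1, APX1 and the other members below these limits were named after their values were seen. The members and lists were chosen with earlier results of these data known.

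Annotation groups came from the TAIR notes carried by the RefSeq annotation: defence for notes on defence, other organisms, viruses or the respiratory burst, root for notes that list the root or root hair without a leaf, stem, shoot, flower or fruit (hypocotyl allowed), and the rest. Copies were aligned globally by coding sequence (Biopython 1.88). Of the genes written in the lists, 3 NADPH oxidases, 4 Casparian strip genes and 5 extensins could not be paired with an ID by symbol and were not analysed here.

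On simulated libraries, 50 genes were changed at each size among 18331 genes. Changes of 1.5-fold were recovered in 22% of cases, 2-fold in 68%, 4-fold in 86% and 8-fold in 98%. Of 143 calls, 6 were false. Noise was drawn independently for each gene, so these rates do not cover shifts that many genes share in a single library. The sample titles number the replicates but state no pairing, and correlations of deviations from the genotype means did not settle it. These were 0.315, 0.0607 and 0.105 between libraries of the same number, and -0.307 to 0.255 between the others. As alternatives, the fit was rerun with a pseudocount of 0.1 or 5, without the filter or with one on the mean over all libraries, after quantile or median-ratio scaling, with a replicate block, without each library, and with tandem copies summed. Scripts ran in Python 3.11.15 (numpy 2.4.6, pandas 2.3.3, matplotlib 3.10.9).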

Additional observations from a re-analysis of the deposited data

How the results depend on the processing

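With no filter on low values 7 members changed (all genes, 7.05%), 6 higher and 1 lower, 2 tandem clusters held a changed copy, 8 members of the related lists changed, and 492 genes were lower in all. With the replicate number as a block 28 members changed (all genes, 19.3%), 20 higher and 8 lower. In that fit 27 members of the related lists changed, and 1251 genes were lower. WT replicates 1 and 3 correlated best with the hid1 library of their own number (0.315 and 0.105), and WT replicate 2 with hid1 replicate 3 (0.255). Whether the numbers mark a pairing was not settled. Quantile normalization gave 1343 and median-ratio scaling 1235 lower genes. Leaving out 1 library at a time gave 10 to 31 changed members, 6 to 24 higher and 1 to 7 lower, 2 to 7 tandem clusters with a changed copy, and 6 to 27 changed members of the related lists. Over all genes it gave 1430 to 3260 changed, 1021 to 2289 higher and 395 to 971 lower. The median log2 fold change of tested members stayed positive under the 14 alternatives, at 0.26 to 0.46. The pseudocounts and the filter on the mean over all libraries changed no count of called members. The cause of these differences was not tested. Intervals on counting error could not be given, since RPKM hold no counts. Members that averaged under 1 RPKM in both genotypes rest on few reads, and the filter left them out of the main fit.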

Other observations

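The reference annotation gives the plant peroxidase domain for 14 further genes outside the 60. Of these, 3 reached a mean of 1 RPKM in either genotype, and none changed in limma (unadjusted p under 0.05: 0 higher, 1 lower). AT5G40150 had 9.88, 10.4 and 9.52 RPKM in hid1, against 17.2, 12.1 and 12.4 RPKM in WT, with a log2 fold change of -0.43 ± 0.15 (limma adjusted p = 0.0778). The hid1 libraries lay together below the WT libraries. AT3G17070 averaged 14.5 ± 2.91 RPKM in hid1 and 12.0 ± 1.53 RPKM in WT, and AT2G24800 averaged 1.37 ± 0.603 RPKM in hid1 and 0.720 ± 0.412 RPKM in WT (SD, n = 3 each).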
